A study of Mus musculus with 15 samples.

Results

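The Nduf genes of the nuclear genome encode most subunits of mitochondrial complex I and many of the factors that assemble it. They were taken as every symbol of the deposited count table made of Nduf, one of the letters or letter pairs a, b, c, s, v, ab or af, and a number, which gave 45 of 55341 symbols. By role they are 7 core catalytic subunits, 9 accessory subunits of the peripheral arm, 19 accessory subunits of the membrane arm, the acyl carrier Ndufab1, 8 assembly factors named Ndufaf, and Ndufa4. The last was first assigned to complex I and is now known as a subunit of complex IV (cytochrome c oxidase). All 45 genes had enough counts to be tested.

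Complex I (NADH:ubiquinone oxidoreductase) is the entry point of the respiratory chain for electrons from NADH. Its peripheral arm, which reaches into the matrix, passes electrons from a flavin along iron-sulfur clusters to ubiquinone. Its membrane arm pumps protons and contains the subunits encoded by mitochondrial DNA, so building the complex needs transcripts from both genomes. Assembly factors put the modules together and are not part of the finished enzyme. Complex I is a known source of superoxide, from which hydrogen peroxide (H2O2) is made.

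The libraries came from 6DT1, a mouse mammary cancer cell line on an FVB/N1 background, either wild type or with Clic4 knocked out. Clic4 encodes an intracellular chloride channel protein. Each genotype was left untreated or given 1 µM H2O2, with 24 h as the labelled time, in 4 libraries per group except 3 for the treated knockout. The labels do not give the number of knockout clones, nor whether replicates were separate cultures, so a clone's own differences cannot be told apart from the knockout, and p-values measure only the spread between these samples, which may be technical.

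Total counts were 12.3 to 16 M per library. Clic4 checked the labels: it was 321 ± 5.05 CPM (counts per M counts after normalisation, SD, n = 4) in wild-type and 71.3 ± 4.92 in knockout cells without H2O2, a log2 fold change of −2.17 (SE 0.0426, adjusted p = 9.88e-26). The title and source of replicate 9 put it in the untreated wild type, but its genotype label read knockout. Its Clic4 level of 326.7 CPM lay with the wild type, and it was kept there. That library also held 67 counts of the leukocyte gene Ptprc, 13 of the T cell gene Cd3e and 15 of the globins Hbb-bs, Hbb-bt and Hba-a1 together, while the other 3 untreated wild-type libraries held 0 globin counts. Epithelial markers (8 genes) summed to 997 to 1060 CPM without H2O2 in wild-type and 922 to 981 in knockout cells, and with H2O2 to 1020 to 1060 and 968 to 1030. Within them keratins moved apart: Krt18 averaged 334 CPM in wild-type and 153 in knockout cells without H2O2 (343 and 168 with it), Krt19 averaged 54.2 and 156 (57.2 and 169), and Krt8 646 and 650. Cldn7 was at 0 in every group, and Epcam and Cdh1 were under 0.1 CPM on average. The blood and immune list (9 genes) summed to 386 to 430 CPM without H2O2 in wild-type and 268 to 305 in knockout cells, and with H2O2 to 396 to 422 and 266 to 279. Cd68 made up nearly all of it, while Ptprc was at 0 in both knockout groups. Fibroblast markers (5 genes, with Lum at 0 in every group) summed to 19.8 to 22.3 CPM in wild-type and 10.9 to 13.7 in knockout cells without H2O2, and to 16.8 to 21.6 and 11.3 to 12 with it. Endothelial markers (4 genes) summed to 0.85 to 3.51 and 3.1 to 3.7 without H2O2, and to 0.881 to 1.51 and 2.92 to 3.68 with it. The part of these differences in the results below was not tested.

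Without H2O2, 12 of the 45 genes were higher in the knockout, 12 were lower and 21 did not pass the test (edgeR's quasi-likelihood test, Benjamini-Hochberg adjusted p under 0.05 over 13085 genes). The called share was 53.3%, and over all tested genes it was 66.8%, 33.9% higher and 32.9% lower. The changes were small and went both ways. Log2 fold changes ran from −0.42 for Ndufaf3 to 0.41 for Ndufaf1, a fall of 25.3% and a rise of 32.6%, and none of the 45 reached 1.5-fold, against 24.4% of all tested genes that were called and at least 1.5-fold. The median log2 fold change was −0.03 (all tested genes 0) and the median size, sign set aside, was 0.18 (all tested genes 0.30). Replicates of the untreated genotypes did not overlap for 13 genes (28.9%), against 58.5% of all tested genes. Scaled by library totals alone, or in the deposited RPKM, the split was 8 higher and 15 lower, and the median of all genes moved by −0.033 and −0.032. Without replicate 9 there were 10 higher and 11 lower: Ndufaf6 was gained, and Ndufaf4 (adjusted p = 0.0993), Ndufb2 (0.102), Ndufs6 (0.0993) and Ndufv1 (0.099) were lost.

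**Figure D1:**
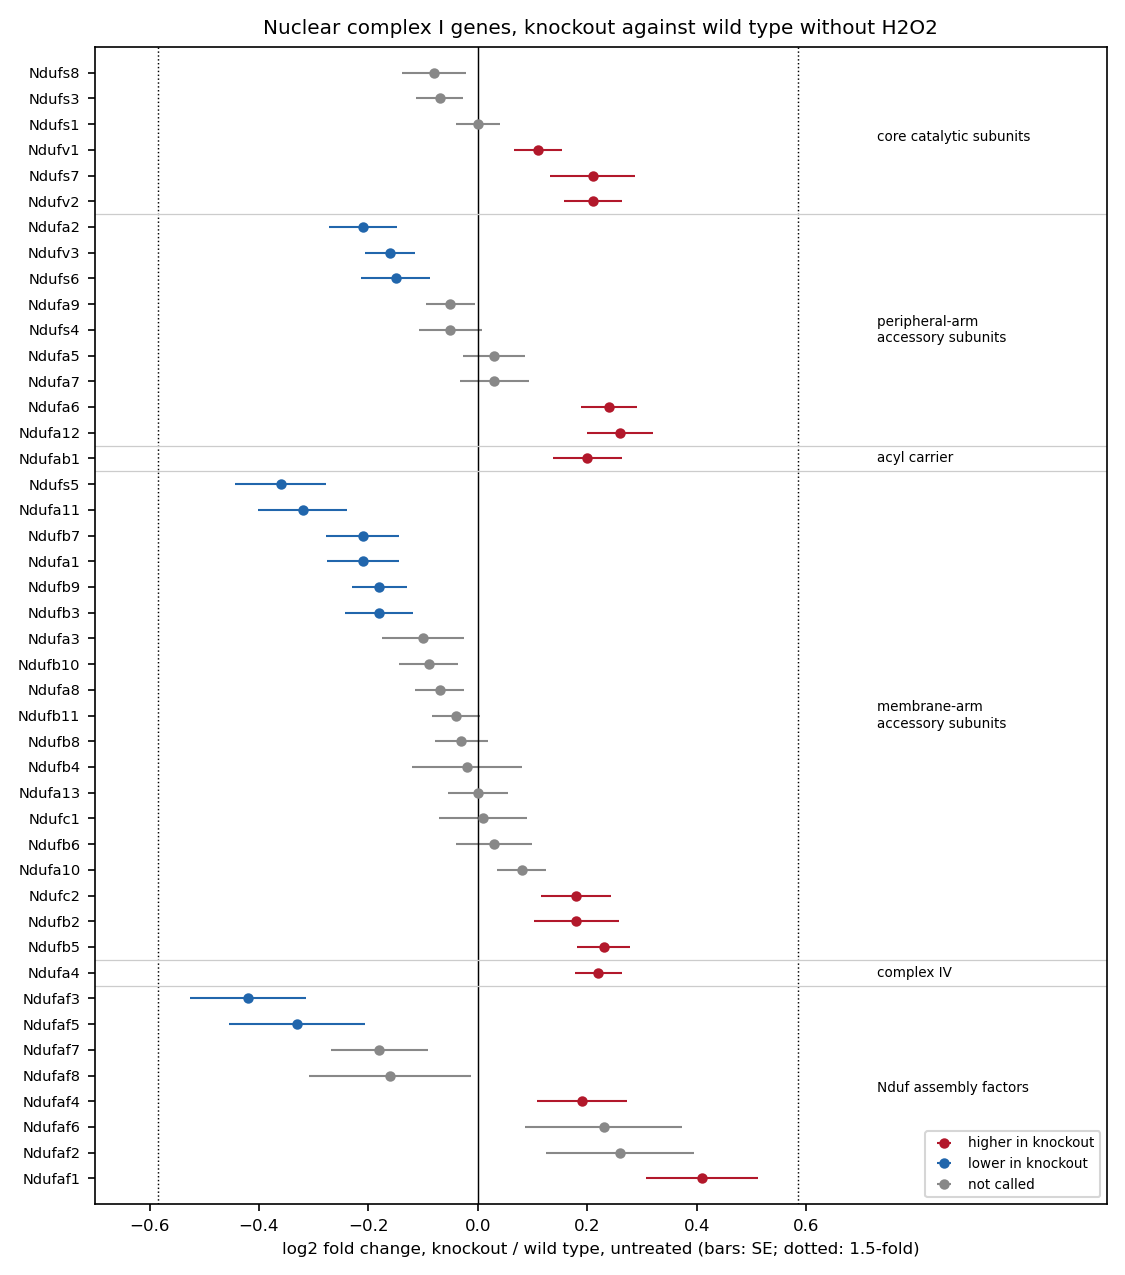
Log2 fold change, untreated knockout over untreated wild type (horizontal axis), of 44 of the genes by role; points are fitted values, bars the SE, colours the call and dotted lines 1.5-fold. Called genes lie on both sides of 0 in the peripheral arm, the membrane arm and the assembly factors, between −0.42 and 0.41.

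After normalisation, the summed level of all 45 genes was nearly the same in the untreated genotypes. It was 1976 ± 30.6 CPM in wild type (1942 to 2008, n = 4) and 1969 ± 18.5 CPM in the knockout (1950 to 1992, n = 4), a difference of −0.356%. With H2O2 it was 1937 ± 66.8 CPM (1877 to 2006, n = 4) and 1925 ± 16.8 CPM (1908 to 1941, n = 3), a difference of −0.615%. The ranges of the genotypes overlapped both times. As a share of unscaled library totals, the 45 genes held 0.203, 0.202, 0.195 and 0.197% in untreated wild type (replicates 9 to 12). The share was 0.196, 0.191, 0.193 and 0.196% in the untreated knockout (replicates 1 to 4).

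Levels between genes were compared per length, in the deposited RPKM (reads per kilobase and per M counts), which depend on the gene length the authors used. In untreated wild-type cells the median of the 45 was 24.7 RPKM against 6.55 for all tested genes. Among the highest were Ndufa4 at 72.4 ± 3.81 RPKM (SD, n = 4) and Ndufa2 at 69.1 ± 5.43, which differ by less than the larger SD. The lowest was Ndufaf6 at 1.8 ± 0.299. By role, the medians were 26 RPKM for the core, 28.7 for the peripheral accessory subunits (18.8 to 69.1) and 28.4 for the membrane accessory subunits (4.96 to 59.7). The 8 assembly factors had the lowest means in these libraries, with a median of 3.52 RPKM (1.8 to 4.87), but the highest of them, Ndufaf8 (4.87 ± 0.305), and the lowest subunit, Ndufb2 (4.96 ± 0.442), differed by less than their SD. In treated wild type their order was reversed, at 4.64 for Ndufaf8 and 4.59 for Ndufb2. Among the subunits, Ndufb2 (4.96), Ndufb4 (6.37), Ndufb7 (8.23) and Ndufab1 (9.7) had the lowest levels. The value of Ndufb4 leaves out Ndufb4c, a copy with identical sequence over 390 bases that held 243.7% of its counts. Over the 45 genes, which share libraries and depth, the Spearman correlation of the size of the log2 fold change with the RPKM was −0.42.

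**Figure D2:**
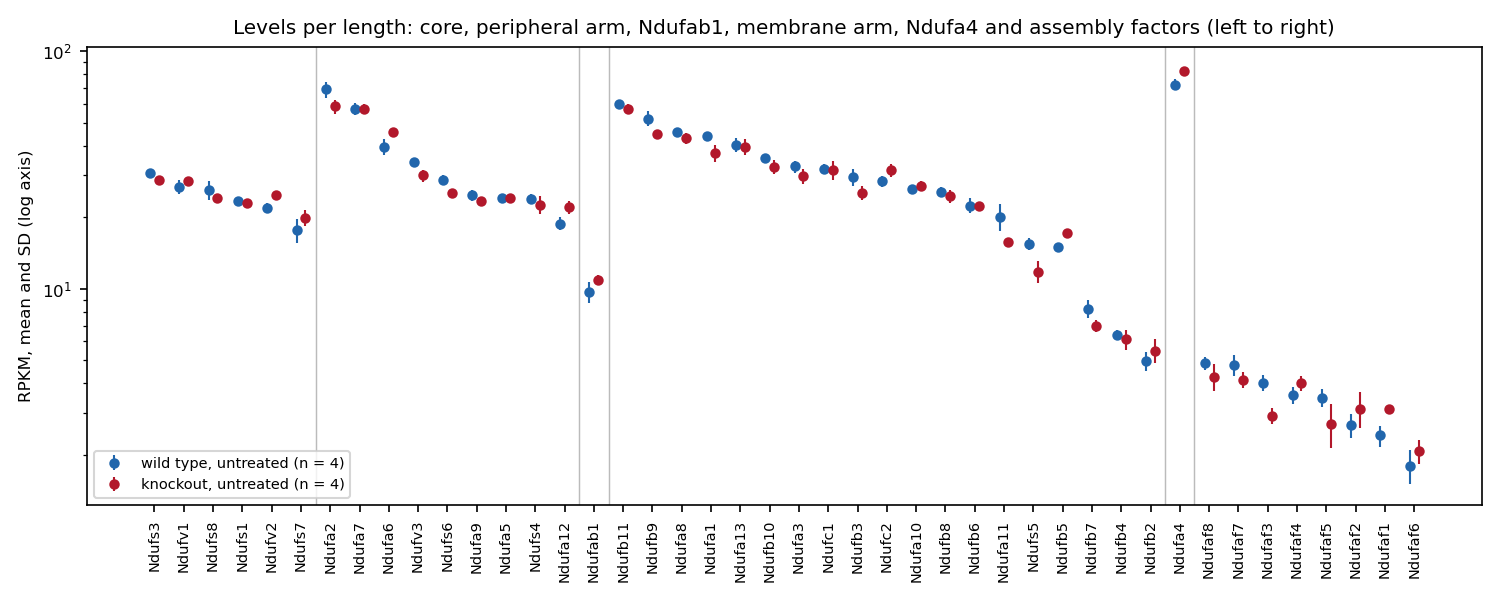
Level per length (RPKM, log axis) of 44 of the genes in untreated wild-type and knockout cells; points are means of 4 libraries, bars the SD, and vertical lines part the roles. The assembly factors at the right lie between 1.8 and 4.87 RPKM in wild type. On the log axis the genotypes lie near each other for most genes. They lie further apart for some, such as Ndufaf3 (4.01 in wild type, 2.92 in the knockout) and Ndufaf1 (2.41 and 3.12).

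The promoters of 4 called genes are shown because the same short motifs stood in genes called higher and genes called lower. Other settings lost the calls of Ndufaf4 (9 of 23), Ndufs7 (6), Ndufs6 (5) and Ndufaf5 (4), and none lost that of Ndufa11. RefSeq promoters (250 bases before to 50 after the start, GRCm38.p6) were found for 40 of the 45 genes. The NRF1 motif GCGCATGCG, of a regulator of respiratory chain genes, was in 4 of 40 (10.0%) on either strand, against 1.95% of all genes and 4.28% of tested genes with a promoter. It was in Ndufaf4, which was higher, in Ndufa11 and Ndufaf5, which were lower, and in Ndufa8, which did not pass the test. The YY1 motif AAGATGGCG was in 6 of 40 (15.0%), against 1.64% of all genes and 3.73% of tested genes. It was in Ndufs7, which was higher, in Ndufs6, which was lower, and in Ndufa9, Ndufaf8, Ndufc1 and Ndufs4, which did not pass, each time on the gene's strand 10 to 35 bases after the start. The ETS motif ACTTCCGG was in 1 of 40 (2.5%, Ndufs3), against 9.56% of tested genes, and the ERR motif TCAAGGTCA in 0 of 40, against 0.324%. Each of the 4 promoters below holds 1 of these motifs and is written 5′ to 3′ on the gene's strand with the motif in capitals. The NRF1 motif is nearly its own reverse complement, so capitals cover both strands' matches. Ndufa11 lies at chr17:56717512-56717811 (plus strand, lower, NRF1), Ndufaf4 at chr4:24897833-24898132 (plus, higher, NRF1), Ndufs6 at chr13:73328433-73328732 (minus, lower, YY1) and Ndufs7 at chr10:80249199-80249498 (plus, higher, YY1).
Ndufa11: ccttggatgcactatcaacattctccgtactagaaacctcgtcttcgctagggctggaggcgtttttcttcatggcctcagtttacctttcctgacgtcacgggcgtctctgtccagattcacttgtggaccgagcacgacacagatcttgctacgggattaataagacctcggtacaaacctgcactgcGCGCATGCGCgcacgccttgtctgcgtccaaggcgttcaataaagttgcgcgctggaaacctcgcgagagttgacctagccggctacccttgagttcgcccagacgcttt
Ndufaf4: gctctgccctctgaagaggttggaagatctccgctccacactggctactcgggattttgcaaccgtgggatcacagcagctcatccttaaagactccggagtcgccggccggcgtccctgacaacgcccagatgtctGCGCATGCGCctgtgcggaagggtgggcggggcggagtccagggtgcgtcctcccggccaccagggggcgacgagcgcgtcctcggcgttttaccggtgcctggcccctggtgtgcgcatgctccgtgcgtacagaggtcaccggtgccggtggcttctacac
Ndufs6: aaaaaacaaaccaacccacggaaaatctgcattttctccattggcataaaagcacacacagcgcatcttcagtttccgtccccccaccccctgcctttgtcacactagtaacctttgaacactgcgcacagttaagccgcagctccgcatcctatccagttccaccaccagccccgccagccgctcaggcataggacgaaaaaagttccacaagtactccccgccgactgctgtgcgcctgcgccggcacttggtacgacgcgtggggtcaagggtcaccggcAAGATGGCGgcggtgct
Ndufs7: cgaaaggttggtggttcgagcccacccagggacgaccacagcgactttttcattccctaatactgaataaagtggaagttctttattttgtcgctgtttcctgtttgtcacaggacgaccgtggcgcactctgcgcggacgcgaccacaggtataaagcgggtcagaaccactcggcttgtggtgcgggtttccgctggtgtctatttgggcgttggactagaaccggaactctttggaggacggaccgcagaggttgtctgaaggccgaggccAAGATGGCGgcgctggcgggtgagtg

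Among the core subunits 3 of 7 were higher in the untreated knockout, against 33.9% of all tested genes. The median log2 of the core was 0. Ndufv2, which holds an iron-sulfur cluster near the flavin, read 55.5, 52.5, 53.5 and 50 CPM in the wild-type libraries (replicates 9 to 12) and 63.6, 62.3, 60.4 and 58 in the knockout libraries (replicates 1 to 4). Every knockout library was above every wild-type library, and the means were 52.9 ± 2.28 and 61.1 ± 2.41 CPM (log2 0.21, SE 0.0527, adjusted p = 0.00105). Ndufs7, which carries the last iron-sulfur cluster before ubiquinone, read 28.8, 26.3, 26.7 and 33.8 in wild type and 35.4, 29.8, 35.3 and 33.1 in the knockout. The groups overlapped through wild-type replicate 12 (log2 0.21, SE 0.0777, adjusted p = 0.0229), and the call was lost without knockout replicate 1 (adjusted p = 0.0669) or 3 (0.0806), or wild-type replicate 10 (0.0854) or 11 (0.0896). Ndufv1, which binds NADH and the flavin, was called higher at log2 0.11 (adjusted p = 0.0365), but 12 of 23 other settings lost this call, among them DESeq2, RLE factors, library totals alone and RPKM. Without wild-type replicate 11 the log2 of Ndufv1 was 0.06 (adjusted p = 0.221). Ndufs1, the largest core subunit, was at log2 0, Ndufs3 at −0.07 and Ndufs8, which holds iron-sulfur clusters, at −0.08, none of them called.

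Of the 9 accessory subunits of the peripheral arm 2 were higher and 3 were lower, with a median log2 of −0.05. Called were 55.6%, against 66.8% of all tested genes. Ndufa12 read 33.2, 28.8, 30 and 30.5 CPM in untreated wild type and 39.4, 37.2, 33.6 and 36.6 in the knockout, without overlap (means 30.6 ± 1.88 and 36.7 ± 2.38, log2 0.26, SE 0.0611, adjusted p = 0.000509). Ndufa6, a member of the LYR protein family that binds an acyl carrier, read 48.5, 41.3, 42 and 46.4 in wild type and 53.6, 50.8, 53 and 53 in the knockout, again without overlap (log2 0.24, SE 0.0517, adjusted p = 0.000205). On the other side, Ndufa2, which has a thioredoxin-like fold, read 62, 62.2, 52.8 and 61.9 in wild type and 53.1, 46.8, 53.9 and 52.9 in the knockout. Wild-type replicate 11 fell among the knockout values (means 59.7 ± 4.61 and 51.6 ± 3.29, log2 −0.21, SE 0.0629, adjusted p = 0.00495). Ndufv3, a small partner of the flavin subunits, fell from 68.3 ± 2.13 to 61.2 ± 3.32 CPM (log2 −0.16, adjusted p = 0.00367). The zinc-binding Ndufs6 fell from 30 ± 1.23 to 27 ± 1.07 (log2 −0.15, adjusted p = 0.0358). Ndufa9 and Ndufs4 were at log2 −0.05 and Ndufa5 and Ndufa7 at 0.03, none of them called. Ndufab1, the mitochondrial acyl carrier protein, which is in both arms and also serves fatty acid synthesis, rose from 37.9 ± 3.98 to 43.3 ± 2.21 CPM (log2 0.20, adjusted p = 0.00803).

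Of the 19 accessory subunits of the membrane arm 3 were higher and 6 were lower, with a median log2 of −0.04. Called were 47.4%, against 66.8% of all tested genes. Ndufs5, a cysteine-motif protein on the intermembrane-space side, read 16.5, 15.5, 15.1 and 14.4 CPM in untreated wild type and 10, 12.5, 12.4 and 12.8 in the knockout, without overlap (means 15.4 ± 0.86 and 11.9 ± 1.28, log2 −0.36, SE 0.0829, adjusted p = 0.000382). Ndufb7, of the same cysteine-motif kind, read 33.8, 38.2, 32.9 and 39.4 in wild type and 30.2, 30, 34.1 and 30.8 in the knockout, where replicate 3 lay among the wild-type values (log2 −0.21, SE 0.0668, adjusted p = 0.00839). Ndufa11 read 27.6, 26.6, 20.6 and 26.2 in wild type and 19.6, 19.4, 21 and 20.8 in the knockout (log2 −0.32, SE 0.0816, adjusted p = 0.0011). Here wild-type replicate 11 was down at the level of the knockout. The single-pass Ndufa1, encoded on the X chromosome, read 28.1, 26.9, 28.6 and 26.7 in wild type and 23.8, 21.8, 23.2 and 26.5 in the knockout, with a narrow gap between the groups (log2 −0.21, SE 0.0658, adjusted p = 0.00692). Ndufb9, another LYR protein, and Ndufb3 also fell, both by 0.18 on the log2 scale (adjusted p = 0.00211 and 0.0115). Against this, Ndufb5 read 46.8, 45.3, 47 and 45.9 in wild type and 54.7, 56.5, 50.5 and 54.7 in the knockout, all above the wild type (means 46.2 ± 0.792 and 54.1 ± 2.53, log2 0.23, SE 0.0484, adjusted p = 0.000174). Ndufc2 and Ndufb2 were also called higher, both at log2 0.18 (adjusted p = 0.0138 and 0.0433). The call of Ndufb2 was lost in 10 of 23 other settings, among them DESeq2, library totals alone and RPKM, and without knockout replicate 2 its log2 was 0.10 (adjusted p = 0.263). The other 10 did not pass: Ndufa3 (log2 −0.10), Ndufa8 (−0.07), Ndufa10 (0.08), Ndufa13 (0), Ndufb4 (−0.02), Ndufb6 (0.03), Ndufb8 (−0.03), Ndufb10 (−0.09), Ndufb11 (−0.04) and Ndufc1 (0.01).

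Ndufa4, the subunit of complex IV, read 93.8, 89, 83.8 and 85.7 CPM in untreated wild type and 103, 103, 97.8 and 106 in the knockout. Every knockout library was above every wild-type library (means 88 ± 4.38 and 102 ± 3.35, log2 0.22, SE 0.0428, adjusted p = 6.17e-05).

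The 8 Ndufaf assembly factors held the largest changes in each direction, 2 higher and 2 lower, with a median log2 of 0.02. Called were 50%, against 66.8% of all tested genes. Their SE ran from 0.0818 for Ndufaf4 to 0.148 for Ndufaf8, the largest SE of the 45 genes. The part of this spread in the size of their changes was not tested. Ndufaf1, part of the membrane-arm assembly complex with Acad9 and Ecsit (gene at chr2:119655446-119662827, mm10), read 5.74, 5.38, 6.75 and 5.61 CPM in wild type and 7.66, 8.15, 7.85 and 7.48 in the knockout, without overlap (means 5.87 ± 0.603 and 7.78 ± 0.286, log2 0.41, SE 0.103, adjusted p = 0.00105). Ndufaf3 (chr9:108565537-108567434), which acts with Ndufaf4 in building the ubiquinone-binding module, read 7.56, 8.93, 8.21 and 7.78 in wild type and 5.51, 6.57, 5.82 and 6.28 in the knockout, again without overlap (means 8.12 ± 0.602 and 6.05 ± 0.47, log2 −0.42, SE 0.106, adjusted p = 0.000933). Its partner Ndufaf4 was at 14.7 ± 1.2 CPM in wild type and 16.7 ± 1.18 in the knockout and was called higher (log2 0.19, adjusted p = 0.0392), a call lost in 9 of 23 other settings, among them DESeq2, library totals alone and RPKM. Ndufaf5, an enzyme that hydroxylates Ndufs7, read 7.9, 7.16, 6.89 and 8.29 in wild type and 5.28, 5.55, 5.32 and 7.88 in the knockout. Knockout replicate 4 alone lay among the wild-type values (log2 −0.33, SE 0.124, adjusted p = 0.0205), and the call was lost without knockout replicate 1 (adjusted p = 0.0676), 2 (0.0594) or 3 (0.0673) or wild-type replicate 12 (0.0604). Ndufaf2, the paralogue of Ndufa12 that holds its place during assembly, was at log2 0.26 (adjusted p = 0.0933), Ndufaf6 at 0.23 (0.154), the methyltransferase Ndufaf7 at −0.18 (0.0776) and Ndufaf8, which stabilises Ndufaf5, at −0.16 (0.362), none of them called.

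**Figure D3:**
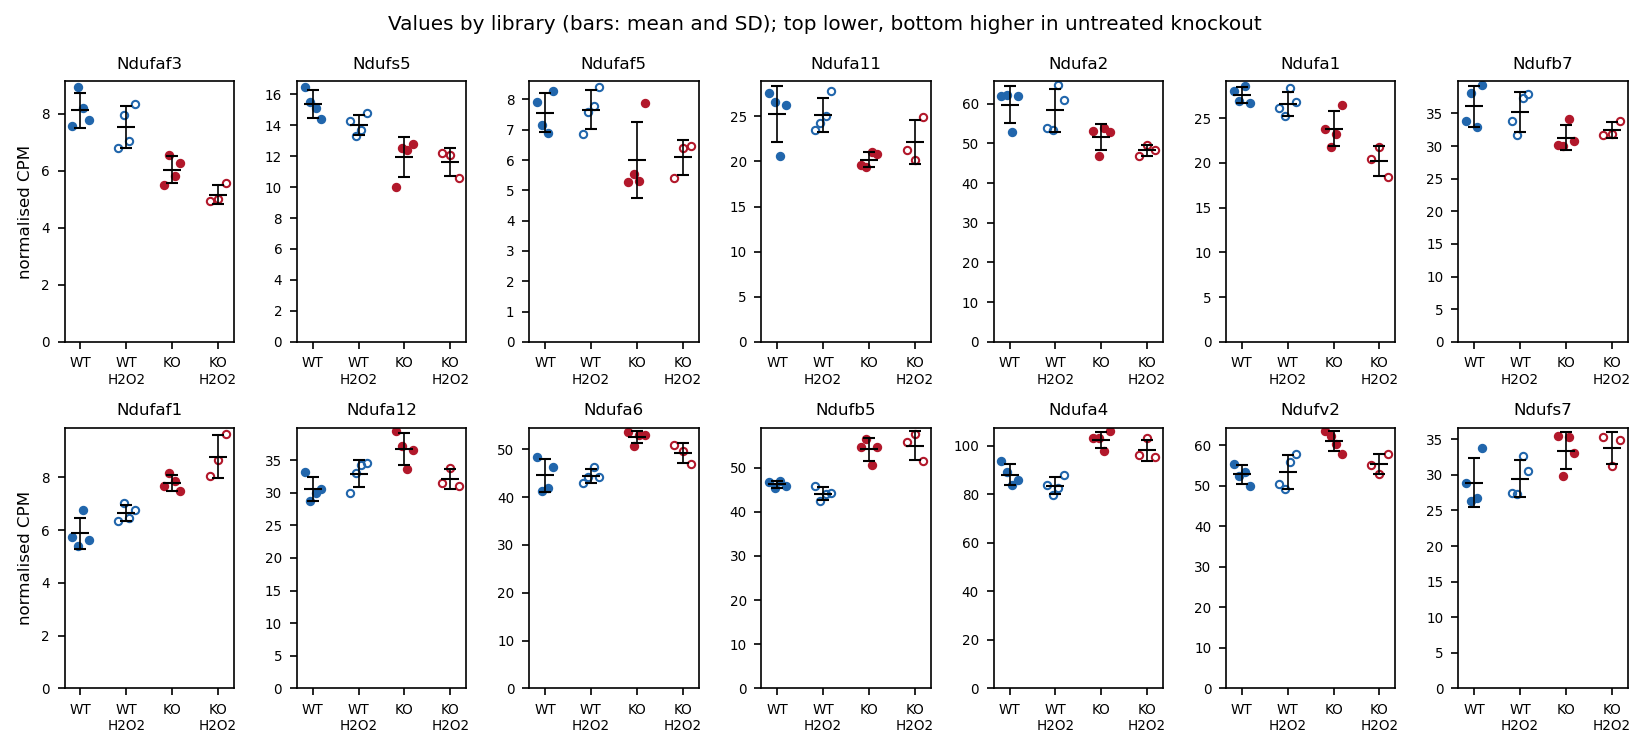
Normalised CPM (vertical axes start at 0) in every library of the 7 genes with the lowest and the 7 with the highest log2 fold change among those called without H2O2; filled points are untreated, open points H2O2, horizontal bars the mean and whiskers the SD. For Ndufaf3 and Ndufs5 all knockout points lie below all wild-type points, and for Ndufaf1 and Ndufb5 all lie above, in both treatments.

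Of the other assembly factors of complex I, 10 of 11 listed symbols were tested and 2 were higher and 2 lower without H2O2 (median log2 −0.05). This called share was 40%, against 66.8% of all tested genes. Acad9, the partner of Ndufaf1, was at 42.4 ± 3.08 CPM in wild type and 55.5 ± 0.578 in the knockout (adjusted p = 1.16e-07, log2 0.39, SE 0.0505), and Tmem186 had a log2 of 0.21 (adjusted p = 0.0195). Nubpl, which delivers iron-sulfur clusters, fell from 11.6 ± 0.835 to 8.23 ± 0.563 (log2 −0.49, adjusted p = 2.74e-05). Tmem126b, of the same membrane-arm complex as Ndufaf1, fell from 17.8 ± 0.921 to 14.3 ± 1.43 (log2 −0.32, adjusted p = 0.00111). With H2O2, Acad9 was again higher in the knockout (log2 0.39), and Tmem126b (−0.38), Nubpl (−0.37), Ecsit (−0.29) and Dmac1 (−0.40) were lower. There the called share was 50%, against 65.4% of all tested genes.

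The mt-Nd genes, the complex I subunits encoded by mitochondrial DNA, went one way without H2O2. All 7, which share libraries and depth, were called lower in the untreated knockout, against 32.9% of all tested genes. Their median log2 was −0.61, from −0.23 for mt-Nd3 (adjusted p = 0.0467) to −0.73 for mt-Nd4 (adjusted p = 0.000239). mt-Nd4 read 2233, 2159, 3031 and 2865 CPM in wild type and 1318, 1809, 1457 and 1636 in the knockout, without overlap. Their sum was 11200 ± 1680 CPM (9667 to 13020, n = 4) in wild type and 7641 ± 883 (6658 to 8658, n = 4) in the knockout, a difference of −31.8%, while the nuclear sum differed by −0.356%. With H2O2 it was 11650 ± 379 (n = 4) and 6144 ± 517 (n = 3), a difference of −47.2%. There 6 of 7 were called lower (median log2 −1.08), against 32.4% of all tested genes, mt-Nd3 being at 0.22 and not called. None of the 7 was called for H2O2 or the interaction. At an unadjusted p under 0.05 by edgeR there was 1 of 7 for H2O2 in wild type. This was mt-Nd3, which was lower with H2O2 (log2 −0.35), while the sum was 3.94% higher. In the knockout there were 4 of 7 (sum changed by −19.6%). For the interaction there were 5 of 7 (median log2 −0.37), among them mt-Nd3, which went the other way (log2 0.45). Of all 13085 tested genes, 847, 1041 and 808 had such a p in these 3 comparisons. Nuclear copies of mitochondrial genes can share reads with them.

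**Figure D4:**
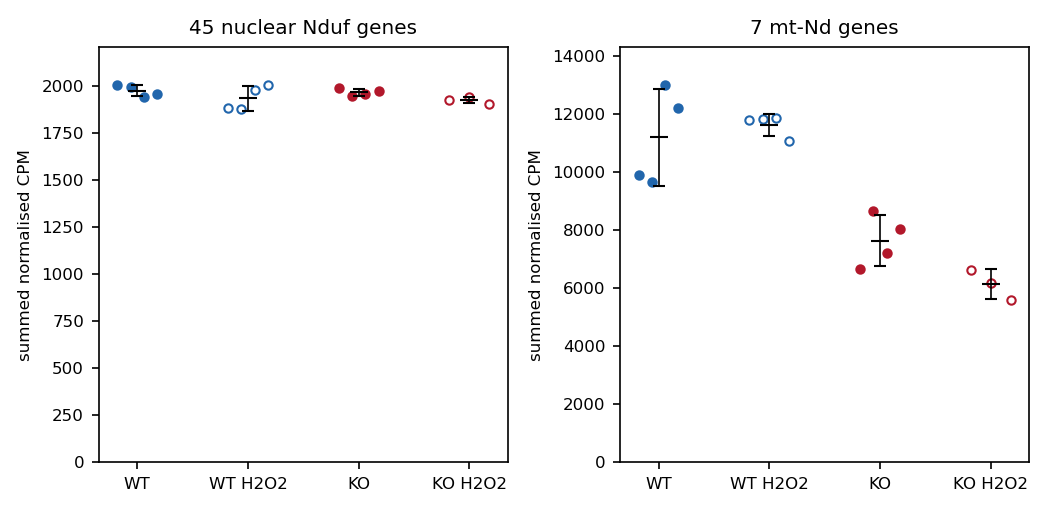
Summed normalised CPM per library of the 45 nuclear Nduf genes (left) and the 7 mt-Nd genes (right), both axes from 0; bars are the mean and whiskers the SD. The nuclear sums lie between 1877 and 2008 in all groups, and the mt-Nd sums of the knockout libraries all lie below those of the wild type.

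The genotypes were compared a second time in the H2O2-treated libraries, none of which is in the untreated comparison, although the same cells and 1 fit underlie both. There 8 genes were higher, 10 lower and 27 did not pass (40% called, against 65.4% of all tested genes, 33% higher and 32.4% lower). In all, 16 genes (35.6%) were called in both sets, each in the same direction, 8 higher and 8 lower, against 58.5% of all tested genes called the same way in both. These 16 are 66.7% of the calls without H2O2 and 88.9% of those with it. Of all tested genes, 7656 were called the same way in both sets, of 8746 called without H2O2 and 8558 with it. Over the 45 genes, which share libraries within a set, the 2 sets' log2 fold changes had a Spearman correlation of 0.83 and a Pearson correlation of 0.84, and 38 had the same sign. The like values over all tested genes were not computed.

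Ndufaf3 and Ndufaf1 were again the extremes. Ndufaf3 read 6.8, 7.97, 7.05 and 8.33 CPM in treated wild type (replicates 13 to 16) and 4.93, 5.01 and 5.56 in treated knockout (replicates 5, 7 and 8), without overlap (log2 −0.55, adjusted p = 0.000246). Ndufaf1 read 6.36, 7.03, 6.46 and 6.75 against 8.06, 8.65 and 9.65, also without overlap (log2 0.40, adjusted p = 0.00215). Ndufs6 was next among the genes that were lower, with 27.4, 26.2, 32.3 and 30.7 CPM against 21.6, 21.8 and 22.5 (log2 −0.41, SE 0.0711, adjusted p = 1.37e-05). Without H2O2 its log2 was −0.15, and the interaction was not called (adjusted p = 0.785). Ndufa1 read 26.1, 25.2, 28.4 and 26.8 against 20.4, 21.8 and 18.4 (log2 −0.39, adjusted p = 3.61e-05), and Ndufb5 45.8, 42.4, 43.9 and 44.3 against 55.9, 57.6 and 51.4 (log2 0.32, adjusted p = 5.43e-06). The groups did not overlap for either. Also higher in both sets were Ndufc2 (log2 0.29 with H2O2), Ndufa4 (0.23), Ndufv1 (0.23), Ndufb2 (0.22), Ndufs7 (0.20) and Ndufa6 (0.15). Also lower in both were Ndufaf5 (−0.33), Ndufa2 (−0.27), Ndufs5 (−0.27), Ndufv3 (−0.23) and Ndufb9 (−0.19). Ndufa3 (−0.25, adjusted p = 0.00802) and Ndufb10 (−0.21, adjusted p = 0.00248) were called only here. Other settings lost the H2O2 calls of Ndufs7 (7 of 23), Ndufaf5 (5), Ndufa6 (4), Ndufb2 (3), Ndufa3 (2) and Ndufs5 (1).

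Of the 8 genes called only without H2O2, Ndufa12 had the largest difference between the sets (interaction adjusted p = 0.67, not called). It read 29.9, 33.1, 34.3 and 34.5 CPM in treated wild type and 31.5, 33.8 and 31 in treated knockout, overlapping (log2 −0.03, adjusted p = 0.67, against 0.26 without H2O2). Ndufa11 (log2 −0.19 with H2O2, adjusted p = 0.0645), Ndufb7 (−0.12), Ndufb3, Ndufv2 (0.06), Ndufab1 (0.03) and Ndufaf4 were among the other 7. Of all 24 genes called without H2O2, 22 kept their sign with it, the exceptions being Ndufa12 and Ndufaf4. Sign agreement over all tested genes was not computed. Of the 8746 called without H2O2, 7656 were called the same way with it.

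**Figure D5:**
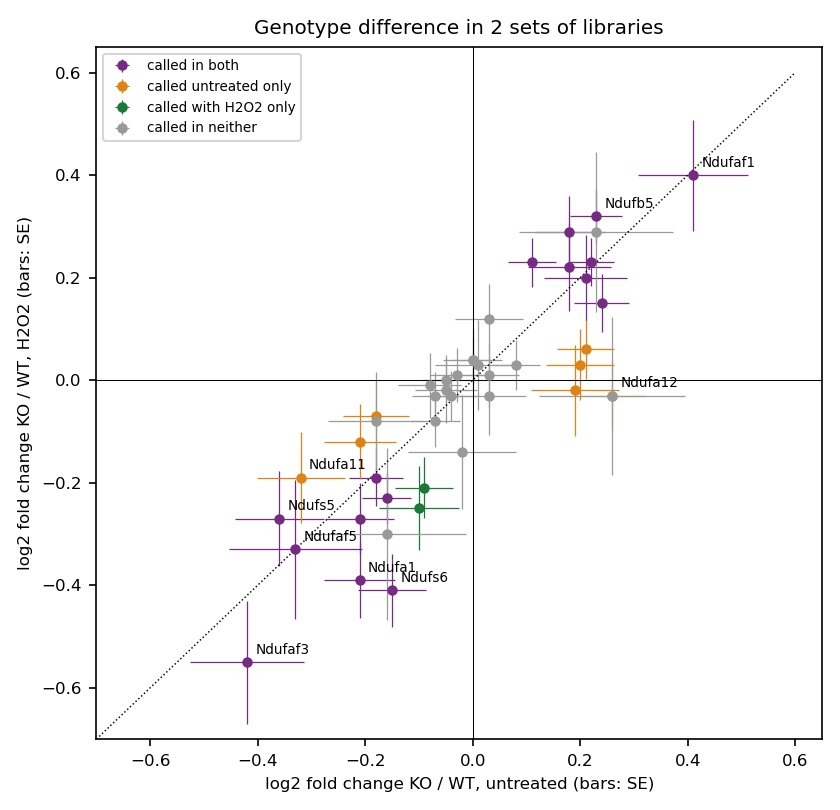
Log2 fold change, knockout over wild type, of 44 of the genes without H2O2 (horizontal axis) and with H2O2 (vertical axis); bars are the SE, the dotted line marks equal values and colours show where a gene was called. The 16 genes called in both sets lie in the lower left and upper right of the plot, and Ndufa12 lies at 0.26 and −0.03.

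None of the 45 genes was called for H2O2. In wild-type cells 0 genes passed by edgeR, DESeq2 or limma-voom, against 0.0153% of all tested genes by edgeR. An unadjusted p under 0.05 was reached by 847 of all 13085 tested genes by edgeR. Of the 45, 1 reached it by each tool. This was the core subunit Ndufs3, at 55.9, 57.5, 54.6 and 56 CPM untreated and 50.3, 51.8, 52.4 and 51.5 with H2O2, which do not overlap (log2 −0.12, adjusted p = 0.622). Ndufc2 (log2 −0.12, adjusted p = 0.797) and Ndufa4 (−0.08, 0.816) had the next smallest p. In knockout cells 0 genes passed by any of the 3 tools, against 0.0535% of all tested genes by edgeR. An unadjusted p under 0.05 was reached by 1041 of all 13085 tested genes by edgeR. Of the 45, 5 had such a p by edgeR and 4 by DESeq2 and by limma-voom. Ndufs6 had the smallest: 28.2, 27.6, 26 and 26.2 CPM untreated and 21.6, 21.8 and 22.5 with H2O2, which do not overlap (log2 −0.30, SE 0.0717, adjusted p = 0.137). Ndufa1 followed (log2 −0.24, adjusted p = 0.355) and then Ndufa12 (−0.19, adjusted p = 0.422).

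The interaction, which asks whether H2O2 acted differently in the genotypes, called 0 of the 45, as of all tested genes (0%), and 0 by DESeq2 or limma-voom. An unadjusted p under 0.05 was reached by 808 of all 13085 tested genes by edgeR, and by 2 of the 45 with each tool. By edgeR the 2 were Ndufa12 (log2 −0.29, SE 0.0907, adjusted p = 0.67) and Ndufs6 (−0.25, adjusted p = 0.785). The next smallest p was that of Ndufv2 (log2 −0.15, adjusted p = 0.818).

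Some of the genes share sequence or place with others, which bears on their counts. Transcripts of 8 of the 45 matched a processed pseudogene at 95% identity or more over at least 150 bases, and for 3 this copy held at least 5% as many counts as the gene. For Ndufb4 the copy Ndufb4c held 243.7% of its counts and for Ndufs5 the copy BC002163 held 75.1%. For Ndufa12 the copy Gm15920 held 34.5%. With gene and copy summed, Ndufs5 stayed lower (log2 −0.26, adjusted p = 0.00269, and −0.42 with H2O2), Ndufa12 stayed higher without H2O2 (log2 0.25, adjusted p = 4e-04), and Ndufb4 was not called (−0.09). Alone, BC002163 was at log2 −0.10 (not called) without H2O2 and at −0.61 (adjusted p = 0.000103) with it. In GENCODE M21, 14 of the 45 overlap a protein-coding gene on the opposite strand, among them Ndufaf3, Ndufa11, Ndufa2, Ndufb5 and Ndufs6. The strand setting used in counting is not given in the sources used here, so reads of the pair may not be told apart. Ndufa13, Ndufb2, Ndufb8 and Ndufb9 also overlap a protein-coding gene on the same strand, where no strand setting would part the reads.

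The 45 genes are spread over 17 chromosomes. For 13 of them the start lies 10 to 312 bases from the start of a protein-coding gene that runs the other way. Of 11 such neighbours that were tested, 7 had a log2 fold change of the same sign without H2O2 and 4 of the opposite sign. Of all 13085 tested genes, 6582 were above 0. The 7 pairs include values near 0, for Ndufa7 (0.03) and for Ercc8 (0.02), the neighbour of Ndufaf2. Whether neighbours change together was not tested. The 12 genes called lower had a median transcript length of 760 bases (419 to 1623) and a median GC content of 52.7% (45 to 59.7), and the 12 called higher 1294 bases (590 to 4371) and 47.2% (39.5 to 59.6), with ranges that overlap widely. The medians of the 21 genes not called were 1005 bases and 51.3%. Over the 45 genes, which share libraries and depth, the log2 fold change had a Spearman correlation of −0.30 with GC content and 0.20 with transcript length. The part of length and GC content in the calls was not tested.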

How the data were processed

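RNA of 15 libraries was sequenced, and the submitters' processing notes name cutadapt, STAR, RSEM and genome build mm10, without versions or settings. The deposited expected counts are whole numbers. Whether the authors rounded them is not given in the sources used here. The deposited RPKM equal, for the 9805 genes checked, the same counts times a factor per gene and a factor per library. The largest relative deviation was 6.3e-15. These factors were not compared with gene lengths or library totals.

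Genes were filtered with filterByExpr by group (13085 kept, 99.917% of counts), scaled by TMM and fitted with edgeR 4.0.16 (R 4.3.3) as 4 group means over all 15 libraries, with 11 residual degrees of freedom. P-values were adjusted over all tested genes. The common biological coefficient of variation was 4.96%. SE is the log2 fold change divided by the square root of F. RPKM were used as log2(RPKM + 0.1) in limma 3.58.1. The script was tested on simulated data.

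The genes and lists were chosen with earlier results of these data known. Given in full were the 7 called genes with the highest and the 7 with the lowest log2 fold change without H2O2, and for H2O2 and the interaction the 3 smallest p. Positions are from GENCODE M21 and promoters from RefSeq (GRCm38.p6). Alternatives were RLE factors, library totals alone, DESeq2 1.42.0, limma-voom, other filters (a mean of at least 5 CPM, or none), RPKM, only the groups compared, leaving out each library, and, chosen after seeing the data, counts summed with pseudogenes. Protein sequences were not used here. The 6 Nduf symbols outside the rule, such as Ndufb1-ps and Ndufb4c, were not counted as members. Of the 45, 1 gene enters the counts, medians and sums but is not reported here by itself.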

Additional observations from a re-analysis of the deposited data

Results flagged for a closer look

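In groups of 4 libraries, the highest or lowest value stood apart from the others (Dixon's test at 95%) in 7 of 138 combinations (the 45 genes and their sum, each in the 3 groups with 4 libraries), and chance flags about 1 in 20. Of these, 4 are in untreated knockout libraries. Ndufa13 was 75.6 CPM in replicate 3 against 64.3 to 65.3 in the others, Ndufa2 was 46.8 in replicate 2 against 52.9 to 53.9, Ndufaf5 was 7.88 in replicate 4 against 5.28 to 5.55, and Ndufs5 was 10 in replicate 1 against 12.4 to 12.8. In untreated wild type, Ndufa2 was 52.8 CPM in replicate 11 against 61.9 to 62.2. In H2O2-treated wild type, Ndufaf2 was 8.55 CPM in replicate 16 against 5.85 to 5.98, and Ndufaf6 was 3.9 in replicate 13 against 3.41 to 3.45.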

How the results depend on the processing

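No call reversed in any setting. Over the other settings the untreated counts were 8 to 12 higher and 11 to 15 lower (12 and 12 as reported), and with H2O2 6 to 8 higher and 9 to 11 lower (8 and 10). Leaving out 1 library gave 9 to 12 higher and 10 to 13 lower without H2O2, and 6 to 9 and 8 to 11 with it. The counts for H2O2 and the interaction were 0 throughout. Of the 24 untreated calls 17 remained in all 23 settings, and of the 18 with H2O2 12 did. Of the untreated calls, settings other than leaving out a library lost those of Ndufv1, Ndufb2, Ndufaf4, Ndufs7 (library totals alone, RPKM) and Ndufs6 (DESeq2). Of the calls with H2O2, such settings lost those of Ndufs7 (library totals alone, DESeq2, RPKM), Ndufa6 (library totals alone), Ndufaf5 (DESeq2) and Ndufb2 (RPKM). Some calls were lost on leaving out 1 library, given here by its replicate number with the adjusted p in brackets. Beside Ndufs7 and Ndufaf5, described above, the untreated call was lost for Ndufaf4 without replicate 2 (0.135), replicate 4 (0.0719), replicate 9 (0.0993), replicate 10 (0.0633) or replicate 12 (0.133). It was lost for Ndufb2 without replicate 2 (0.263), replicate 9 (0.102), replicate 10 (0.151), replicate 12 (0.0778) or replicate 13 (0.0555). It was lost for Ndufc2 without replicate 1 (0.0568) or replicate 12 (0.0771). It was lost for Ndufs6 without replicate 3 (0.0736), replicate 4 (0.0769), replicate 9 (0.0993) or replicate 10 (0.0775). It was lost for Ndufv1 without replicate 1 (0.0721), replicate 2 (0.063), replicate 3 (0.112), replicate 9 (0.099), replicate 11 (0.221) or replicate 13 (0.0559). With H2O2 the call was lost for Ndufa3 without replicate 7 (0.0535) or replicate 15 (0.0508). There it was also lost for Ndufa6 without replicate 5 (0.116), replicate 7 (0.0622) or replicate 13 (0.0704). There it was also lost for Ndufaf5 without replicate 5 (0.158), replicate 14 (0.051), replicate 15 (0.0572) or replicate 16 (0.0889). There it was also lost for Ndufb2 without replicate 7 (0.135) or replicate 14 (0.102). There it was also lost for Ndufs5 without replicate 8 (0.0761). There it was also lost for Ndufs7 without replicate 5 (0.149), replicate 8 (0.117), replicate 13 (0.112) or replicate 14 (0.115). The cause was not tested. No paired analysis was possible because the labels do not say which libraries, if any, belong together. The replicate numbers run on from group to group and do not settle this. The lowest count of any of the 45 genes in a library was 38, and the SE of the untreated log2 fold changes reached 0.148.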
